A study of Mus musculus with 30 samples.

Results

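Microglia are held in their identity by a small circuit of transcription factors, and 9 genes of that circuit were followed here: Sall1, Spi1, Irf8, Maf, Mef2a, Mef2c, Runx1, Cebpa and Bhlhe41. They were chosen by name, as the rows of the deposited expression table whose gene symbol was one of the 9. Of these genes, 7 had a row, and they held 10 of the 14225 transcript rows of the table, whereas Runx1 and Cebpa had none and were not analysed here. The table was made by RNA-seq of CD11B bead-isolated microglia from whole brains of C57BL/6J offspring, with 3 libraries in each of 10 groups. Mothers received saline (Saline) or poly(I:C), a double-stranded RNA mimic that causes maternal immune activation (MIA), at E9.5. Offspring of both kinds were sampled at E17, P7, P20 and P60. At P60 each prenatal group was split into mice on control chow throughout (CTRL) and mice in which microglia had been depleted with PLX5622 chow, a CSF1R inhibitor given from P21 to P42, and had then repopulated the brain on control chow (MG-REP). A library was the pooled brains of 1 litter at E17, 3 pooled brains at P7 and 1 brain at P20 and P60. The labels give neither sex, litter nor batch, so p-values measure the spread between these libraries.

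Spi1 encodes PU.1, the Ets factor without which myeloid cells do not form, and Irf8, Runx1 and Cebpa act with it in the yolk sac and bone marrow progenitors from which microglia and monocytes arise. Sall1, a zinc finger repressor, is expressed in microglia and hardly in other macrophages, and its loss turns microglia towards an inflammatory macrophage state. Maf, Mef2a and Mef2c are factors whose binding sites mark enhancers of resident microglia, and Bhlhe41 is a basic helix-loop-helix repressor of resident tissue macrophages.

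The transcription start regions show where these genes are read from. The RefSeq promoter table for GRCm38.p6 held 13 promoters of the listed genes (3 for Sall1, 2 for Irf8, 1 for Mef2a, 3 for Mef2c, 2 for Runx1, 1 for Cebpa and 1 for Bhlhe41). Sall1, Mef2a and Bhlhe41 are printed because they were the 3 genes whose transcripts had higher values at P20 than at P7 in both Saline and MIA offspring. Each sequence reads 5′ to 3′ towards the start site on the minus strand, in lower case, with capitals for GAGGAA, the core of Ets sites bound by PU.1, or for CACGTG, an E-box that helix-loop-helix factors such as BHLHE41 bind. The Sall1 and Mef2a windows span the 250 bases before a start site. That of Mef2a lies within the span of the gene and that of Sall1 lies before it. The Bhlhe41 window was shortened to 112 bases where an exon is annotated.
Sall1, chr8:89044163-89044412: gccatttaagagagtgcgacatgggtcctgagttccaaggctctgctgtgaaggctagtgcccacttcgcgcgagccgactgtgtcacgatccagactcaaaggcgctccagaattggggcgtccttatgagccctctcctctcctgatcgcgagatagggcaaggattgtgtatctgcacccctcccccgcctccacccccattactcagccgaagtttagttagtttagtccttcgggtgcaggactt
Mef2a, chr7:67372859-67373108: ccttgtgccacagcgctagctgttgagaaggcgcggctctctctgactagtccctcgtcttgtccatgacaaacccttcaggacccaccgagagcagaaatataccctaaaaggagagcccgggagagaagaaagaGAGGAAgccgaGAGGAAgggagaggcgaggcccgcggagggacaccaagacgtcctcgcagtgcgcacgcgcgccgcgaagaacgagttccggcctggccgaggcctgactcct
Bhlhe41, chr6:145865559-145865670: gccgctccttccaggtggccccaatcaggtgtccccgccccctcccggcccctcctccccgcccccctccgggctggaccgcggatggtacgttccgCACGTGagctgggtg
GAGGAA stood at -114 and -103 in the Mef2a window, counted from its start site, and CACGTG at -153 in the Bhlhe41 window. The Sall1 window held none of the 7 motifs searched. These were GAGGAA for Ets factors, CACGTG for helix-loop-helix factors, GAAANNGAA for interferon regulatory factors, CTANNNNTA for Mef2, TGTGGT for Runx, TTGCNNAA for C/EBP and TGCTGA for Maf factors, on both strands of the 250 bases before each start. GAGGAA occurred in 4 of the 13 member promoters and in 23.3% of all 32851 promoters, and CACGTG in 2 of 13 and in 6.02% of all. The Mef2 letters occurred in 2 of 13 (19.0% of all) and the Maf letters in 2 of 13 (16.1%). The letters for interferon regulatory factors, Runx and C/EBP occurred in none of the 13 and in 7.13%, 14.0% and 9.56% of all promoters. A match says only that the letters are present.

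Values are TPM, read counts scaled to a common library total and for transcript length. Total reads were not in the table. The steps between low values gave an estimate of 7990000 to 12820000 counted reads per library, with a median of 10455000. On that estimate a library held 1182 to 15415 reads of Sall1 and 2543 to 8887 of Spi1, but only 42 to 199 of Irf8 NM_008320, 1 to 95 of Bhlhe41, 2 to 36 of either Mef2a transcript and 1 to 12 of Irf8 NM_001301811. Counting error therefore bears far more on the last 4 of these than on Sall1 and Spi1. The estimate was 50 to 167 reads for Mef2c NM_001170537 and 4 to 41 for Mef2c NM_025282, and none was made for Maf. Several of these genes have more curated RefSeq transcripts than rows: Sall1 has 3 for 1 row, Spi1 3 for 1, Bhlhe41 2 for 1, Mef2a 7 for 2 and Mef2c 18 for 2. How reads shared by transcripts of 1 gene were counted is not given in the sources used here. Rows of genes with a single curated transcript had a median of mean TPM of 25.5 (n = 8405), and those of genes with more had 6.26 (n = 5719). A low value for Irf8, Mef2a, Mef2c or Bhlhe41 may therefore not be the level of the gene, and a change of the gene and a change of its isoforms cannot be told apart. Tests used limma on log2(TPM + 1) over all 30 libraries, two-sided, with Benjamini-Hochberg adjustment over the 14225 transcripts. A transcript is said to have risen or fallen only at an adjusted p under 0.05, and every log2 difference below is on this scale, which understates changes of low transcripts.

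The cells carried the marks of microglia. In Saline CTRL mice Tmem119 was at 2990 ± 573 TPM (SD, n = 3) and P2ry12 at 3970 ± 671 TPM, while Mrc1, a border macrophage marker, was at 195 ± 18.2 TPM and S100a8, a neutrophil marker, at 431 ± 39.4 TPM. The labelled cell type was thus matched in this group, with other myeloid transcripts present. Their weight differed in some other groups. In P7 Saline libraries Mrc1 was at 845 ± 153 TPM, between Tmem119 at 494 ± 133 and P2ry12 at 1960 ± 476 TPM. In Saline MG-REP libraries S100a8 was at 982 ± 1540 TPM, beside P2ry12 at 828 ± 190 and Tmem119 at 1590 ± 114 TPM. That S100a8 mean was uneven, with libraries from 15.2 to 2754 TPM against 395 to 473 TPM in Saline CTRL. The monocyte and neutrophil markers summed to a median of 381 TPM in Saline MG-REP and 804 TPM in Saline CTRL libraries. The lowest correlation of log2(TPM + 1) between libraries of 1 group was 0.956, in E17 MIA. Xist and Y-linked transcripts showed that the groups differed in sex: all 6 E17 libraries and 5 of 6 P7 libraries held both, all P20 and all MG-REP libraries held Xist alone, and each P60 CTRL group held 1 library with Xist alone and 2 with Y-linked transcripts alone.

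Sall1, Spi1 and Maf were abundant at every age, each above at least 98.0% of all transcript rows by mean TPM. Sall1 (NM_021390, chromosome 8, 89027242 to 89044162 of GRCm38.p6, minus strand) was at 255 ± 71.8 TPM in E17 Saline, 363 ± 38.6 at P7, 626 ± 54.5 at P20 and 659 ± 79.7 in P60 Saline CTRL mice (SD, n = 3 in each). In MIA offspring the corresponding means were 258 ± 52.0, 375 ± 91.7, 691 ± 99.3 and 567 ± 62.8 TPM. Sall1 thus stood at its lowest before birth and at a higher plateau from P20, with neighbouring groups from P20 on overlapping. The only group off this order was P60 Saline MG-REP, at 132 ± 68.3 TPM, the lowest of all 10, and the highest group mean was 5.23 times the lowest.

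Spi1 (NM_011355, chromosome 2, 91082374 to 91115759) varied least, with the highest group mean 1.67 times the lowest. It was at 855 ± 96.5 TPM in E17 Saline, 807 ± 15.5 at P7, 633 ± 140 at P20 and 589 ± 81.5 in P60 Saline CTRL (SD, n = 3). Neighbouring ages overlapped except P7 and P20, and no step passed the test (limma adjusted p = 0.872, 0.127 and 0.89 in order of age). Maf (NM_001025577, chromosome 8, 115703253 to 115706894) was at 454 ± 74.4, 606 ± 77.2, 519 ± 60.8 and 465 ± 74.5 TPM in the same 4 groups. Its lowest means were in the repopulated groups, at 271 ± 11.7 TPM in Saline and 342 ± 16.1 TPM in MIA offspring.

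**Figure D1:**
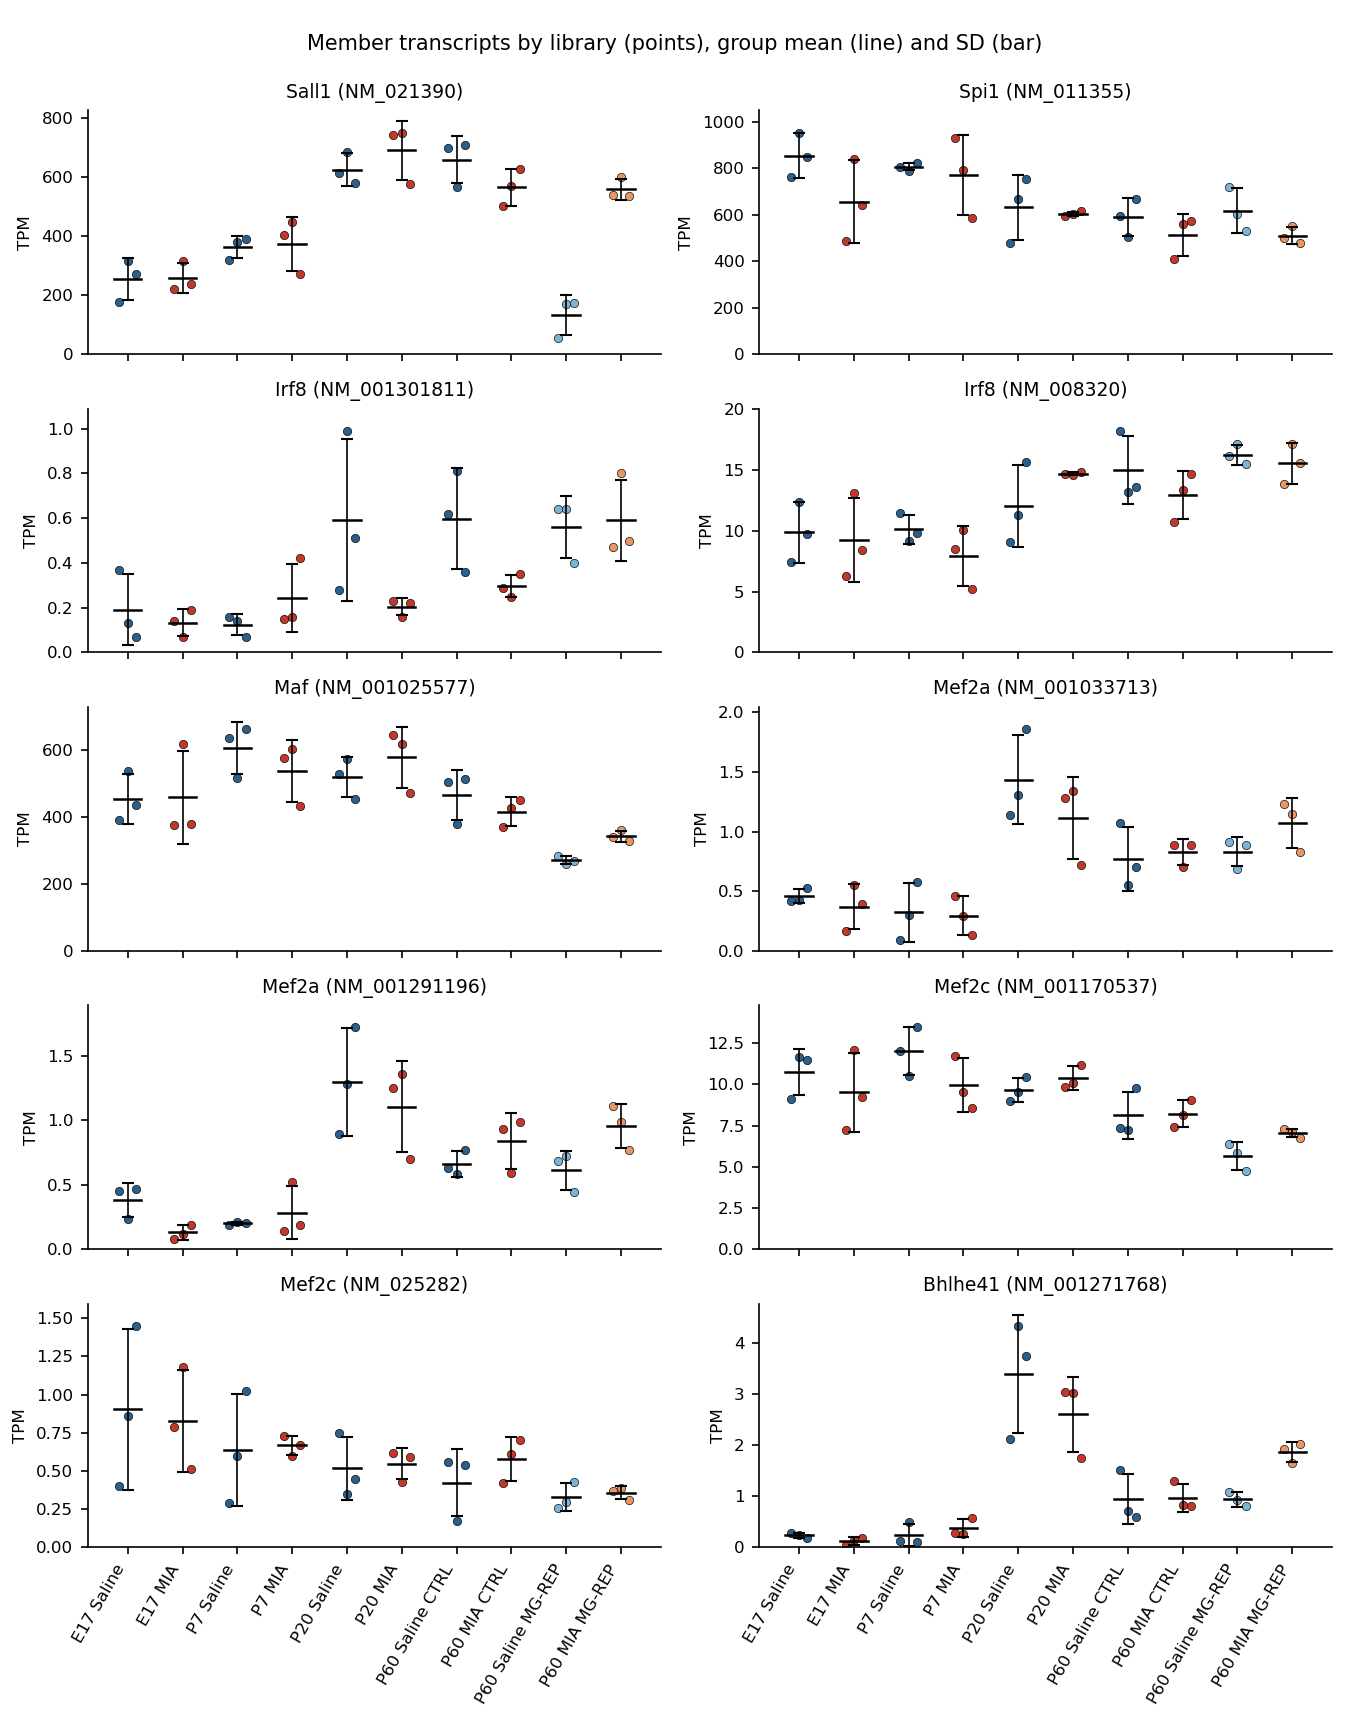
TPM of the 10 member transcripts (vertical axes, each from 0) in the 10 groups (horizontal axis), with 1 point per library, a line at the group mean and a bar of 1 SD. Sall1 is at 132 TPM in Saline MG-REP mice and between 560 and 659 TPM in the other P60 groups, and Bhlhe41 is highest at P20.

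The other transcripts were low. Irf8 NM_008320 (chromosome 8, 120736358 to 120756694) ranged over groups from 7.91 ± 2.45 TPM in P7 MIA to 16.2 ± 0.827 in P60 Saline MG-REP, and Mef2c NM_001170537 (chromosome 13, 83504017 to 83667079) from 5.65 ± 0.834 in P60 Saline MG-REP up to P7 Saline, whose libraries held 10.5 to 13.5 TPM. Bhlhe41 (NM_001271768, chromosome 6, 145858243 to 145865420, minus strand) had the widest range, from 0.123 ± 0.0737 TPM in E17 MIA to 3.39 ± 1.15 in P20 Saline, a ratio of 27.6. Both Mef2a transcripts (chromosome 7, 67231163 to 67376456, minus strand) had their highest group mean in P20 Saline, at 1.44 ± 0.376 and 1.30 ± 0.415 TPM. The highest group mean of NM_001033713 was 4.91 times its lowest. Irf8 NM_001301811 and Mef2c NM_025282 stayed under 1 TPM in every group mean.

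The first question was how the factors change while microglia mature, which the age steps within Saline and within MIA offspring address. From P7 to P20, Sall1, both Mef2a transcripts and Bhlhe41 rose in both prenatal groups. So did 1 Irf8 transcript in each, NM_001301811 in Saline and NM_008320 in MIA offspring. Neither Spi1, Maf nor the Mef2c transcripts passed the test at this step. In Saline offspring 5 of the 10 member transcripts rose and none fell, where 16.1% of all transcripts rose and 20.1% fell. In MIA offspring it was likewise 5 and none, against 13.1% and 22.5%. The median log2 difference of the members was 0.34 in Saline and 0.41 in MIA offspring, beside -0.02 and -0.09 over all transcripts.

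Bhlhe41 rose most. Its 3 P7 Saline libraries held 0.13, 0.50 and 0.11 TPM, and the 3 P20 Saline libraries held 2.11, 4.33 and 3.74 TPM. In MIA offspring the values were 0.29, 0.26 and 0.58 TPM at P7, then 3.04, 3.01 and 1.75 TPM at P20. Every P20 library was above every P7 library. The mean was 13.8 times higher in Saline offspring (log2 difference 1.79, SE 0.20, limma adjusted p = 1.99e-07) and 6.90 times higher in MIA offspring (1.37, adjusted p = 8.36e-06). An estimated 3 to 13 reads stood behind a P7 Saline value and 41 to 95 behind a P20 Saline value.

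Mef2a NM_001033713 was at 0.09, 0.30 and 0.58 TPM in P7 Saline and at 1.14, 1.31 and 1.86 TPM in P20 Saline libraries. Mef2a NM_001291196 was at 0.19, 0.21 and 0.20 TPM in P7 Saline and at 0.89, 1.28 and 1.72 TPM in P20 Saline libraries. Again no P7 library reached the P20 range. The log2 differences were 0.89 (SE 0.16, limma adjusted p = 0.000147) and 0.92 (SE 0.15, adjusted p = 3.79e-05) in Saline offspring. In MIA offspring they were 0.70 (adjusted p = 0.00135) and 0.71 (adjusted p = 0.00058).

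Sall1 was at 319, 382 and 389 TPM in the P7 Saline libraries and at 614, 686 and 579 TPM in the P20 Saline libraries. In MIA offspring it was at 406, 447 and 272 TPM at P7 and at 745, 752 and 577 TPM at P20. The groups did not overlap at either step. The mean was 1.72 times higher in Saline offspring (log2 difference 0.79, 95% interval 0.18 to 1.39, limma adjusted p = 0.0394) and 1.84 times higher in MIA offspring (0.90, adjusted p = 0.0188). The call in Saline offspring was lost whichever of the 6 libraries was left out, with log2 differences of 0.70 to 0.84 and adjusted p of 0.0563 to 0.126. That in MIA offspring was lost without P7 MIA library 3 (0.69, adjusted p = 0.106), P20 MIA library 1 (adjusted p = 0.0628) or P20 MIA library 2 (adjusted p = 0.0651).

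Irf8, a partner of PU.1, gave a split result. NM_008320 was at 8.46, 10.04 and 5.23 TPM in P7 MIA and at 14.6, 14.6 and 14.8 TPM in P20 MIA libraries, a log2 difference of 0.86 (limma adjusted p = 0.00608), and in Saline offspring the difference was 0.20 (adjusted p = 0.538). Without P7 MIA library 3 the MIA difference was 0.62 (adjusted p = 0.0541). NM_001301811 had a log2 difference of 0.48 in Saline offspring (adjusted p = 0.0101), from 0.16, 0.14 and 0.07 TPM to 0.28, 0.99 and 0.51 TPM, and of -0.04 in MIA offspring. Without P20 Saline library 2 the former was 0.31 (adjusted p = 0.0992). Whether the step differed between Saline and MIA offspring was not tested for either transcript.

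Other cell types moved with this step. Markers of the oligodendrocyte lineage summed to 283 to 485 TPM in P7 Saline and 1450 to 3950 TPM in P20 Saline libraries, and 6 of their 9 transcripts rose. Neuron markers went from 111 to 147 TPM up to 566 to 829 TPM (4 of 10 transcripts rose), and astrocyte markers from 508 to 771 TPM up to 1240 to 2200 TPM (5 of 10 rose). P7 MIA library 3, with the lowest Sall1 and Irf8 NM_008320 values of its group, had the highest sums of its group, with 740 TPM of oligodendrocyte, 244 of neuron and 1470 of astrocyte markers. The defining transcripts Mbp and Snap25 were above 0 in every P7 and P20 library. Border macrophage markers summed to 2560 to 2820 TPM in P7 Saline and 1280 to 1530 TPM in P20 Saline libraries, with 3 of 8 transcripts lower and none higher in Saline and likewise in MIA offspring. Mitosis genes fell from 1130 to 1280 TPM in P7 Saline to 29.8 to 47.2 TPM in P20 Saline, with all 12 transcripts lower. Microglia identity genes, a list without the members, rose in 13 of 19 transcripts in Saline (median log2 difference 0.85) and 16 of 19 in MIA offspring (0.89). Sex and pooling changed as well. All P7 Saline libraries and 2 of the 3 P7 MIA libraries held both Xist and Y-linked transcripts, and every P7 library was 3 pooled brains. All P20 libraries were of 1 brain and held Xist alone. Each of these changed at the same step as the members and their part in the result was not tested.

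The earlier and the later age step held fewer differences for the members. Between E17 and P7 none of the 10 passed the test in Saline offspring (of all transcripts 3.09% were higher at P7 and 1.23% lower) or in MIA offspring (1.59% and 0.801%). The largest differences were those of Sall1, at 0.55 in Saline (limma adjusted p = 0.326, groups not overlapping) and 0.52 in MIA offspring (adjusted p = 0.493). Between P20 and P60 CTRL mice, Bhlhe41 alone fell, by 1.17 in Saline (adjusted p = 0.00133) and by 0.86 in MIA offspring (adjusted p = 0.0193) on the log2 scale. Of all transcripts 1.02% were higher and 2.49% lower at P60 in Saline offspring, and 1.03% and 1.57% in MIA offspring.

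For Bhlhe41 the P60 CTRL libraries held 1.51, 0.72 and 0.60 TPM in Saline and 1.29, 0.82 and 0.80 TPM in MIA offspring, all below the lowest P20 library at 1.75 TPM. The first of each triplet was the library with Xist alone, as all P20 libraries were, and it was the highest of its group. With log2 Xist as a covariate the differences were -0.85 (adjusted p = 0.0794) in Saline and -0.53 (adjusted p = 0.262) in MIA offspring. When limma was fitted to the compared groups alone, the adjusted p was 0.188 in Saline and 0.0745 in MIA offspring. In MIA offspring the call was also lost without P20 library 1 or 2 or without P60 CTRL library 2 or 3, with differences of -0.76 to -0.80. Oligodendrocyte markers summed to 432 to 1690 TPM in P60 Saline CTRL libraries, which overlapped the P20 range of 1450 to 3950 TPM, with 1 of 9 transcripts lower in Saline and none in MIA offspring by the test. Their part in the Bhlhe41 result was not tested. Both Mef2a transcripts were lower at P60 than at P20 in Saline offspring without overlap, by log2 differences of -0.46 (adjusted p = 0.121) and -0.45 (adjusted p = 0.0916), which did not pass.

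**Figure D2:**
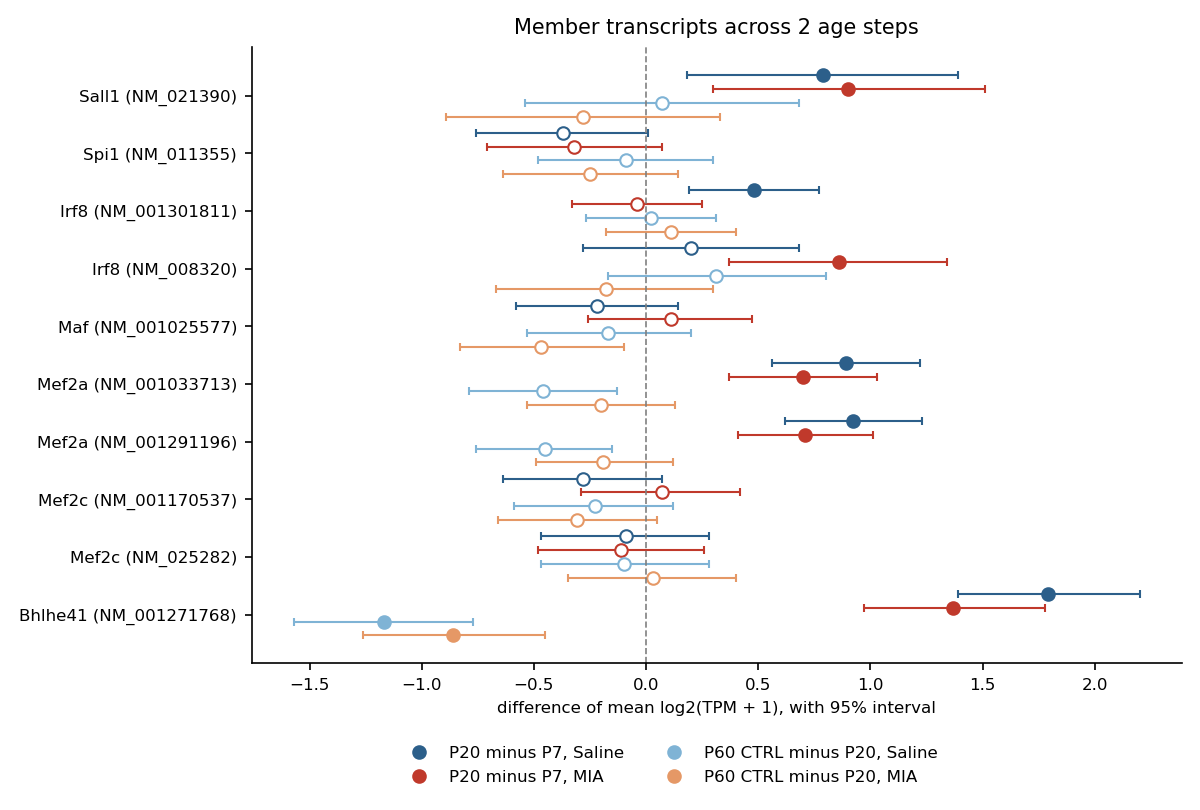
Difference of mean log2(TPM + 1) between ages (horizontal axis) for each member transcript (vertical axis), with its 95% interval; filled points have an adjusted p under 0.05 and open points do not. Sall1, both Mef2a transcripts and Bhlhe41 are filled and to the right for P20 minus P7 in both prenatal groups, and Bhlhe41 alone is filled to the left for P60 CTRL minus P20.

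The second question was whether maternal immune activation itself changed the factors. Comparing MIA with Saline offspring at E17, P7, P20 and P60 CTRL, none of the 10 transcripts passed the limma test at any age, and 0% of all transcripts did at each of the 4 ages. At an unadjusted p under 0.05 there were 585, 335, 457 and 256 transcripts at the 4 ages in that order, of which 1, 0, 1 and 0 were members. The member at E17 was Spi1, at 762, 955 and 849 TPM in Saline and 488, 842 and 643 TPM in MIA libraries, which overlapped (log2 difference -0.41, 95% interval -0.80 to -0.02, limma unadjusted p = 0.0406, adjusted p = 0.754). The member at P20 was Irf8 NM_001301811 (log2 difference -0.38, unadjusted p = 0.0127, adjusted p = 1), a transcript of few reads. For Sall1 the MIA minus Saline difference was 0.04 at E17 (95% interval -0.56 to 0.65), 0.02 at P7 (-0.59 to 0.63), 0.13 at P20 (-0.47 to 0.74) and -0.22 at P60 (-0.82 to 0.39). These intervals leave room for a change of Sall1 in either direction, so no difference was detectable with 3 libraries a group rather than shown to be absent.

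The third question was what the factors do in microglia that have repopulated the adult brain. In Saline offspring Sall1 fell to 0.201 of its CTRL mean and Maf to 0.583, and none of the 10 transcripts rose. In MIA offspring none of the 10 passed the test. Of all transcripts 11.9% were higher and 14.9% lower in MG-REP than in CTRL mice among Saline offspring, and 0.387% and 0.169% among MIA offspring. The median log2 difference of the members was -0.04 in Saline and 0.05 in MIA offspring, beside -0.14 and -0.08 over all transcripts.

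Sall1 was at 699.8, 567 and 710.0 TPM in the 3 Saline CTRL libraries and at 53.6, 169 and 175 TPM in the 3 Saline MG-REP libraries. In MIA offspring it was at 503, 569 and 629 TPM in CTRL and at 542, 600.4 and 538 TPM in MG-REP libraries. The Saline groups were far apart and the MIA groups overlapped. The log2 difference was -2.48 in Saline offspring (95% interval -3.09 to -1.87, SE 0.29, limma adjusted p = 5.96e-07) and -0.01 in MIA offspring (-0.62 to 0.59, adjusted p = 0.999). The difference between these effects was 2.47 (95% interval 1.61 to 3.32, SE 0.42, adjusted p = 0.000262). Saline MG-REP library 1, the lowest, was not decisive: without it the Saline difference was -1.93 (adjusted p = 3.37e-07) and the difference between effects 1.91 (adjusted p = 8.06e-05).

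Maf was at 503, 379 and 512 TPM in Saline CTRL and at 283, 259.9 and 269 TPM in Saline MG-REP libraries, and at 369, 428 and 451 TPM in MIA CTRL and 339, 359.7 and 328 TPM in MIA MG-REP libraries. Neither pair of groups overlapped. The log2 difference was -0.77 in Saline offspring (95% interval -1.13 to -0.40, limma adjusted p = 0.00193) and -0.28 in MIA offspring (-0.64 to 0.09, adjusted p = 0.963), and the difference between effects did not pass (0.49, -0.02 to 1.00, adjusted p = 0.249). After median-ratio scaling of the libraries the Saline difference was -0.63 with an adjusted p of 0.0535. This scaling moved the median of all transcripts from -0.14 to -0.05 and the share of higher among called transcripts from 44.3% to 57.5%.

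Mef2c (NM_001170537), a MADS-box factor that restrains microglial inflammatory responses, was at 7.36, 7.23 and 9.79 TPM in Saline CTRL and at 6.36, 5.85 and 4.73 TPM in Saline MG-REP libraries. These groups did not overlap, and the log2 difference of -0.45 (95% interval -0.81 to -0.10) had a limma adjusted p of 0.0533. The adjusted p was 0.0417 with a pseudocount of 0.1 and 0.0455 among transcripts with a mean TPM of at least 1. Spi1, at 593, 506 and 669 TPM in Saline CTRL and 722, 602 and 532 TPM in Saline MG-REP, overlapped throughout (0.07, -0.32 to 0.46). The interval of the Spi1 difference did not reach the size of the Sall1 difference in the same libraries. Irf8 NM_008320 differed by 0.12 and the Mef2a transcripts by 0.05 and -0.04, none of them passing.

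Bhlhe41 was at 1.09, 0.93 and 0.80 TPM in Saline MG-REP and at 1.93, 1.64 and 2.02 TPM in MIA MG-REP libraries. The latter lay above all 3 MIA CTRL libraries (1.29, 0.82 and 0.80 TPM), a mean ratio of 1.92. The log2 difference of 0.55 had a 95% interval of 0.14 to 0.95 and did not pass the limma adjustment (adjusted p = 0.423). With log2 Xist as a covariate it was 0.24 (adjusted p = 0.801).

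**Figure D3:**
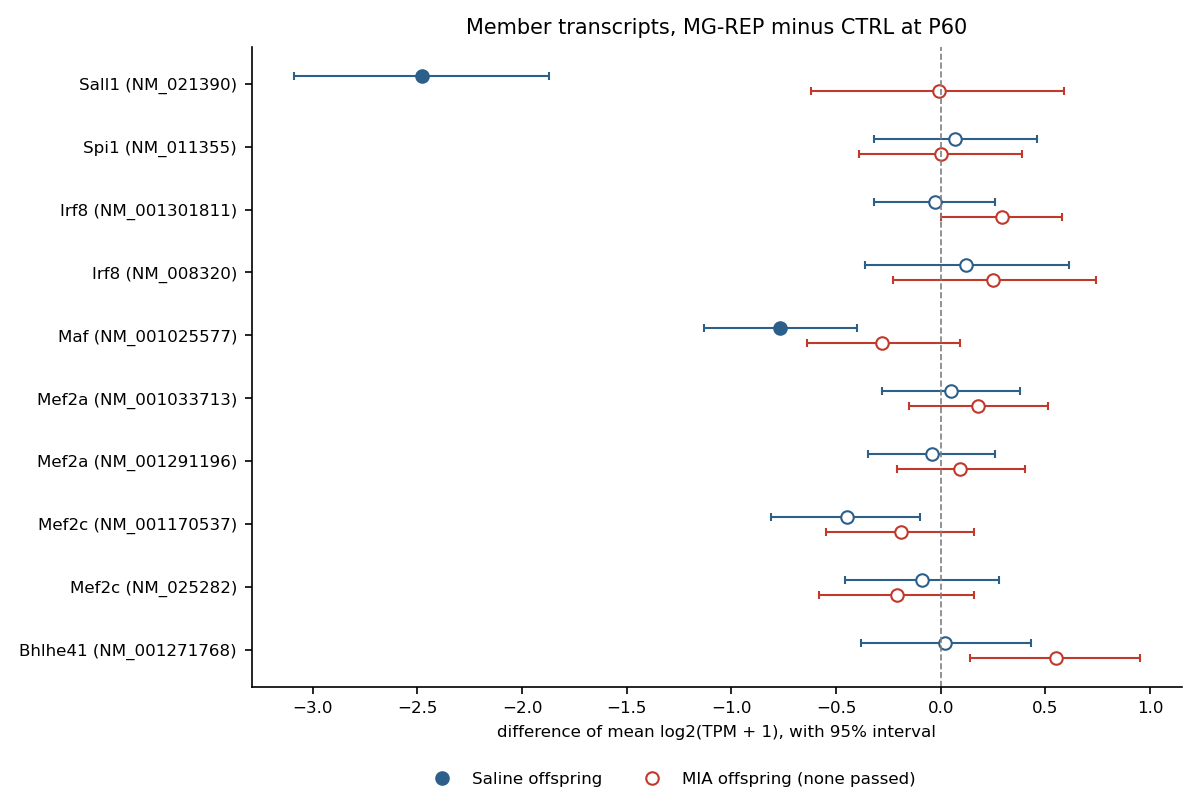
Difference of mean log2(TPM + 1), MG-REP minus CTRL at P60 (horizontal axis), with its 95% interval, for each member transcript (vertical axis) in Saline (blue) and MIA offspring (red); filled points have an adjusted p under 0.05. Sall1 at -2.48 and Maf at -0.77 in Saline offspring are the filled points, and no MIA point is filled.

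Other transcripts moved with Sall1 in the same libraries. Among microglia identity genes, 13 of 19 transcripts fell and 1 rose in Saline MG-REP mice (median log2 difference -0.90), and their summed level was 100000 to 146000 TPM in Saline CTRL libraries, 56800 to 74600 where Saline mice were repopulated and 124000 to 134000 where MIA mice were. P2ry12, the purinergic receptor of resting microglia, was at 3970 ± 671 TPM in Saline CTRL mice, 828 ± 190 after repopulation in Saline and 3110 ± 262 after repopulation in MIA offspring (SD, n = 3). All 12 mitosis genes rose in Saline MG-REP mice, with summed levels of 1500, 609 and 527 TPM in its 3 libraries against 22.8 to 33.0 in Saline CTRL and 23.9 to 26.8 in MIA MG-REP. Library 1, lowest in Sall1, was highest in mitosis genes. At E17 and P7 the mitosis sum was 1080 to 1280 TPM and Sall1 was between 177 and 447 TPM in every library. The part of dividing cells in the Sall1 result was not tested.

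Markers of other myeloid cells moved in both directions. The 8 border macrophage markers summed to 2370, 1340 and 1340 TPM in the Saline MG-REP libraries against 904 to 1200 in Saline CTRL and 694 to 868 in repopulated MIA mice, but only 2 of the 8 rose and 1 fell. Pf4 was at 577 ± 281 TPM in Saline MG-REP against 137 ± 17.6 in Saline CTRL mice, whereas Mrc1 was at 186 ± 47.4 against 195 ± 18.2. The 10 monocyte and neutrophil markers summed to 94.4, 5560 and 381 TPM in the Saline MG-REP libraries against 801 to 946 in Saline CTRL. By the test 1 was higher and 1 lower, and the median log2 difference of the 10 was -0.75. Ccr2, a monocyte receptor, was at 58.2 ± 7.41 TPM against 18.8 ± 0.776 in Saline CTRL mice, and at 25.1 ± 4.51 in MIA MG-REP mice. The 5 lymphoid markers summed to 2.05 to 9.93 TPM against 6.79 to 21.4, with 3 lower and none higher by the test. None of Pf4, Mrc1, Ccr2 and S100a8 was at 0 in a P60 library. In bulk libraries fewer cells of a type and less RNA per cell cannot be told apart, and the part of these cells in the Sall1 result was not tested. All 3 Saline MG-REP libraries held Xist alone, as did 1 of 3 Saline CTRL libraries, which held 699.8 TPM of Sall1. With log2 Xist as a covariate, which is partly confounded with the groups, the Saline difference was -2.48 (limma adjusted p = 4.39e-05).

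**Figure D4:**
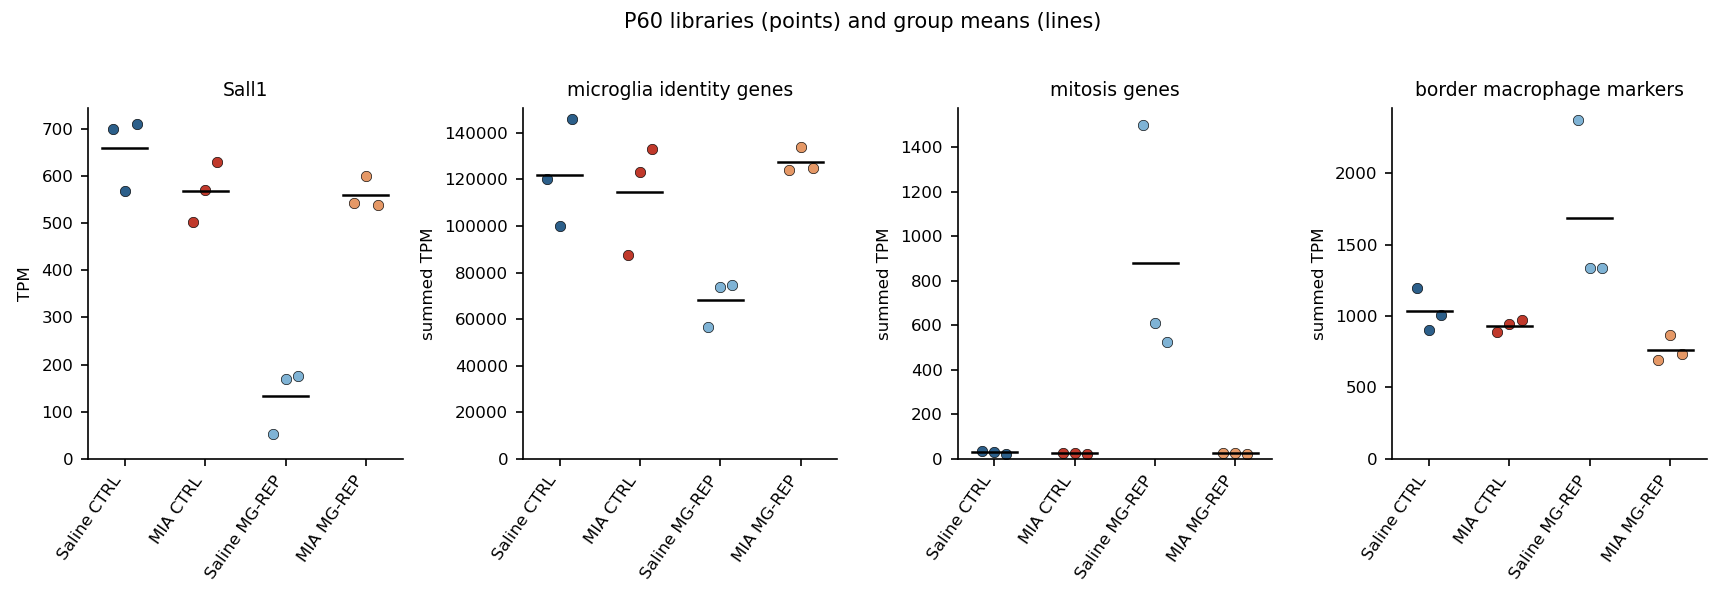
TPM of Sall1 and summed TPM of 3 gene lists (vertical axes, from 0) in the 12 P60 libraries (points) by group (horizontal axis), with lines at group means. In Saline MG-REP libraries Sall1 is at 53.6 to 175 TPM and the mitosis genes at 527 to 1500 TPM, while in both panels the 3 other groups lie together. Border macrophage markers are at 694 to 868 TPM in MIA MG-REP libraries, below those of MIA CTRL (885 to 973 TPM) and Saline CTRL (904 to 1200 TPM).

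The difference between the MG-REP effects in MIA and Saline offspring passed the test for Sall1 alone of the 10 transcripts, where 4.42% of all transcripts had a higher effect in MIA than in Saline offspring and 6.09% a lower one. The median over members was 0.20 beside 0.04 over all transcripts. For Bhlhe41 it was 0.52 (95% interval -0.05 to 1.09, limma adjusted p = 0.273). For Spi1 it was -0.07 (-0.62 to 0.49).

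The relatives and binding partners of the members, a list of 25 genes of which 20 had 23 transcripts, moved on both sides. In Saline MG-REP mice 2 rose, 6 fell and 15 did not pass (median log2 difference -0.19), where 11.9% of all transcripts rose and 14.9% fell, and in MIA MG-REP mice none of the 23 passed. Runx3, a relative of Runx1 best known from lymphocytes and dendritic cells, rose from 3.25 ± 0.345 to 118 ± 53.6 TPM in Saline offspring (log2 difference 4.72, SE 0.29, limma adjusted p = 2.36e-11) and was at 6.92 ± 1.94 TPM in MIA MG-REP against 3.20 ± 1.41 in MIA CTRL mice. Bhlhe40, the closest relative of Bhlhe41, rose by a log2 difference of 1.24 (adjusted p = 0.0112) where the Bhlhe41 row had a difference of 0.02. That row was at 0.943 TPM in Saline CTRL and 0.94 TPM in Saline MG-REP mice, which may not be the level of the gene. Sall3 went from 81.1 ± 4.43 to 36.5 ± 12.3 TPM (-1.19, adjusted p = 2.87e-05) and Cebpd, a C/EBP factor of inflammatory responses, from 85.9 ± 10.7 to 51.9 ± 4.24 TPM (-0.71, adjusted p = 0.00691, and 0.0613 with log2 Xist as a covariate). Irf4, of the family of Irf8, went from 13.9 ± 1.08 to 4.03 ± 0.884 TPM (-1.58, adjusted p = 1.23e-05), whereas Irf8 did not pass.

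**Figure D5:**
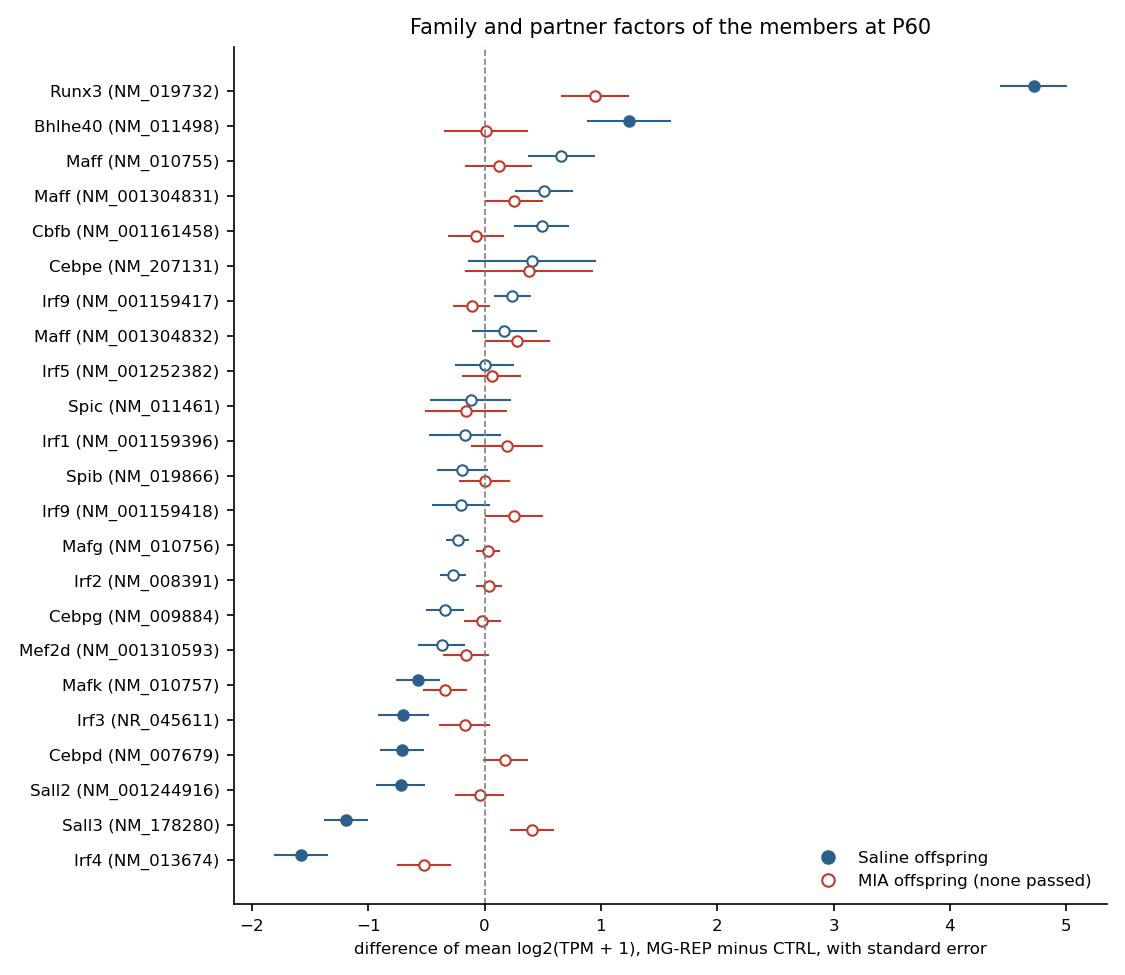
Difference of mean log2(TPM + 1), MG-REP minus CTRL at P60 (horizontal axis), with its standard error, for the 23 transcripts of relatives and partners of the members (vertical axis) in Saline (blue) and MIA offspring (red); filled points have an adjusted p under 0.05. Runx3 at 4.72 and Bhlhe40 at 1.24 are the filled points on the right, and Irf4 at -1.58 is the lowest of the 6 on the left.

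The same list had 6 transcripts higher and 2 lower at P20 than at P7 in Saline offspring (median -0.06, with 16.1% and 20.1% of all transcripts), and 6 higher and 3 lower in MIA offspring (median 0.06, with 13.1% and 22.5%). Sall3 rose from 38.4 ± 7.59 to 83.6 ± 6.22 TPM (log2 difference 1.12, limma adjusted p = 5.71e-05), where Sall1 had a difference of 0.79. Cebpg, a partner of C/EBP factors, rose from 70.1 ± 14.1 to 164 ± 9.84 TPM. Between E17 and P7 in Saline offspring, 2 rose and none fell (3.09% and 1.23% of all). They were Irf4 by 1.06 (adjusted p = 0.00926) and Irf1 NM_001159396 by 1.27 (adjusted p = 0.018). That Irf1 transcript was low, at 2.66 ± 0.995 TPM in E17 and 7.76 ± 1.88 TPM in P7 Saline libraries. Without P7 Saline library 1 the differences of Irf4 and Irf1 were 0.86 (adjusted p = 0.0726) and 1.11 (adjusted p = 0.107). The Irf1 call was also lost without E17 Saline library 2 (1.09) or 3 (1.25). Between P20 and P60 in Saline offspring none rose and 4 fell (1.02% and 2.49% of all), among them Mafg (-0.67, adjusted p = 0.000548, and 0.133 with the compared groups alone).

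Other myeloid transcription factors, a list of 42 genes of which 35 had 42 transcripts, had 6 higher and 14 lower in Saline MG-REP mice (median -0.18, with 11.9% and 14.9% of all transcripts) and none called in MIA MG-REP mice. Ets2 rose from 128 ± 10.4 to 358 ± 52.2 TPM (log2 difference 1.47, limma adjusted p = 5.2e-08). Ets1 fell from 10.3 ± 0.603 to 2.26 ± 0.555 TPM (-1.81, adjusted p = 4.8e-06), and Ikzf2, which encodes Helios, from 7.09 ± 0.587 to 1.56 ± 0.521 TPM (-1.68, adjusted p = 4.84e-07). Smad3, which carries the TGF-beta signal that microglia need, fell by 0.92 (adjusted p = 8.13e-06). From P7 to P20, 4 rose and 10 fell in Saline offspring, with 16.1% and 20.1% of all transcripts, and 6 rose and 6 fell in MIA offspring, with 13.1% and 22.5%. In Saline offspring Ets2 went from 249 ± 9.58 to 146 ± 26.8 TPM and Ikzf2 from 4.59 ± 1.21 to 9.08 ± 0.617 TPM, each opposite in sign to its difference in Saline MG-REP mice.

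Members differed in which other transcripts they resembled over the 10 group means, a description over means that share libraries within a group. The most alike to Sall1 among 9512 transcripts with a mean TPM of at least 5 was P2ry12 (Pearson r = 0.98), followed by Ulk3 and Prdm2 (0.98 each). Maf was most like Cdyl2, Ing2 and Cnksr3 (0.98 each), and Spi1 most like Pepd (0.97), Csrnp1 and Nrros (0.96 each). Irf8 NM_008320 was most like Gna12 (0.98), H2-T23 and Ifnar2 (0.95 each), and Bhlhe41 most like 0610030E20Rik (0.97), Mir7213 and Irf2bp2 (0.96 each). Among the members, both Mef2a transcripts had r = 0.96 with Bhlhe41 and 0.97 with each other, and Maf had r = 0.93 with Mef2c NM_001170537 but 0.54 with Sall1. The most opposite pair was Mef2c NM_025282 and Irf8 NM_008320 (r = -0.85), and Spi1 had r = -0.71 with that Irf8 transcript. In the module column of the table, which its authors made by clustering these libraries, Sall1, both Mef2a transcripts and Bhlhe41 carried 1 label (JM), while the others were spread over 3 (Spi1 and Mef2c NM_025282 in IM, Maf and Mef2c NM_001170537 in MIA-IM, both Irf8 in AM).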

How the data were processed

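RNA-seq of CD11B bead-isolated microglia was analysed in 30 libraries, 3 in each of 10 groups. Per the methods and the submitters' processing notes, the authors sequenced poly(A) RNA with a non-stranded kit, aligned reads to mm10, counted them with featureCounts, dropped genes with low counts and deposited TPM per transcript. The TPM formula is not given in the sources used here. The members and gene lists were chosen with earlier results of these data known. TPM were tested with limma 3.58.1 in R 4.3.3 on log2(TPM + 1), in 1 linear model of all 10 groups with a mean-variance trend and 13 contrasts, two-sided, at a Benjamini-Hochberg adjusted p of 0.05 over 14225 transcripts. The code was tested on simulated data. Named relatives and factors were up to 4 with the smallest adjusted p in each repopulation contrast and Saline age step, and Bhlhe40 was named after its values were seen. One relative on the list is not reported here, and its counts leave it out. Transcripts most alike to a member were the 3 with the highest Pearson r over group means. Promoters were RefSeq's on GRCm38.p6, and figures were drawn with matplotlib 3.10.9 in Python 3.11.15. The spacing of low TPM values gave the estimate of reads. Same-numbered libraries deviated together in every pair only between P20 Saline and P20 MIA (r of 0.30, 0.16 and 0.17), where a replicate block called 0 transcripts, as the fit without it did. Alternatives were median-ratio scaling, a filter at a mean of 1 TPM, a pseudocount of 0.1, a replicate block, log2 Xist as a covariate, the compared groups alone and leaving out each library.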

Additional observations from a re-analysis of the deposited data

Results flagged for a closer look

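By a limma test of the difference itself, the effect of repopulation differed between MIA and Saline offspring for Sall1, 1 of 10 member transcripts. It also differed for 4 of 23 transcripts of relatives and partners and for 7 of 42 of other myeloid factors. Of all 14225 transcripts the same test called 1496, 4.42% with a positive difference and 6.09% with a negative one. Calls were therefore not particular to these factors, and whether either list exceeded that share was not tested. Sall1 and the 9 of these factors named by the rule on smallest adjusted p are given here as the MIA effect minus the Saline effect on the log2 scale. For Sall1 it was 2.47 (adjusted p = 0.000262), with all 3 Saline MG-REP libraries below all 3 Saline CTRL libraries and the MIA groups overlapping. It stayed past the threshold in every alternative run, from 1.91 without Saline MG-REP library 1 to 2.75 without Saline MG-REP library 3. Runx3 had a value of -3.77 (adjusted p = 1.1e-06), Ets2 of -1.49 (adjusted p = 3.13e-05), Sall3 of 1.60 (adjusted p = 0.000202), Hhex of 1.04 (adjusted p = 0.00235), Ets1 of 1.39 (adjusted p = 0.0107) and Ikzf2 of 1.08 (adjusted p = 0.0121). Cebpd had a value of 0.90 (adjusted p = 0.0338), Smad3 of 0.60 (adjusted p = 0.0369) and Irf4 of 1.06 (adjusted p = 0.0377), and each of these 3 calls was lost after median-ratio scaling (adjusted p = 0.0828, 0.142 and 0.0912) and without any 1 of several libraries.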

How the results depend on the processing

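No difference changed sign past the threshold. The count of members called from P7 to P20 was 5 in Saline offspring, 2 among transcripts with a mean TPM of at least 1 (which tests fewer of the low members) and 3 to 4 when each library was left out. In MIA offspring it was 5, then 3 with that filter and 3 to 5 without 1 library. From P20 to P60 the 1 called in Saline offspring became 0 with log2 Xist as a covariate and 0 with the compared groups alone, and 1 to 2 without 1 library. In MIA offspring the 1 became 0 with a pseudocount of 0.1, with log2 Xist and with the compared groups alone, and 0 to 1 without 1 library. In Saline MG-REP mice 2 became 1 after median-ratio scaling. The cause was not tested. Over all transcripts, that last contrast had 3805 calls, 1911 with the compared groups alone and 2460 without Saline MG-REP library 1. The P20 to P60 step in Saline offspring had 499 calls, 115 with log2 Xist and 5 with the compared groups alone. That step in MIA offspring had 370 calls and 111 with log2 Xist. From E17 to P7 in MIA offspring there were 340 calls and 10 with the compared groups alone. MG-REP in MIA offspring had 79 calls and 30 with log2 Xist, and the difference between effects 1496 calls and 963 without Saline MG-REP library 1. Median-ratio scaling also moved the share of higher among calls from 29.1% to 44.8% for P20 to P60 in Saline offspring, from 39.5% to 51.6% in MIA offspring and from 36.7% to 49.2% for P7 to P20 in MIA offspring. Replicate numbers did not pair libraries in general, since 11 of 27 same-numbered pairs correlated above 0.1 (range -0.65 to 0.74). With a replicate block the 2 members called in Saline MG-REP mice stayed 2, and Sall1 had -2.48 (adjusted p = 6.34e-06). Of all alternative values for member transcripts, 1543 kept their side of the threshold, 22 lost and 3 gained a call. Depth limits the Irf8 NM_001301811, Mef2a, Mef2c NM_025282 and Bhlhe41 values most.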

Other observations

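Further factors of macrophage and stress responses changed with age or repopulation in Saline offspring, tested with limma over all transcripts. From P7 to P20, Tfec, a relative of the lysosomal regulator Tfeb, fell from a mean of 29.9 to 8.88 TPM (log2 difference -1.67, adjusted p = 0.000137) and Lmo2, a haematopoietic adaptor, from 11.6 ± 2.43 to 3.71 ± 0.772 TPM (-1.41, adjusted p = 1.38e-05). From P20 to P60, Nfe2l2, the oxidative stress regulator NRF2, fell from 655 ± 153 to 332 ± 5.09 TPM (-0.95, adjusted p = 0.00486) and Bach1, which competes for its sites, from 235 ± 31.3 to 127 ± 7.66 TPM (-0.87, adjusted p = 0.000548), and with the compared groups alone their adjusted p was 0.118 and 0.0802. In Saline MG-REP mice Nfe2l2 was at 643 ± 111 TPM and Bach1 at 135 ± 9.80 TPM (SD, n = 3). Immediate early genes respond to cell isolation as well as to signals. Of their 21 transcripts 6 rose and 10 fell in Saline MG-REP mice (median log2 difference -0.56), where 11.9% of all transcripts rose and 14.9% fell. The summed level of these genes was 19400 to 27200 TPM against 41200 to 54900 in Saline CTRL and 32300 to 43600 in MIA MG-REP libraries. Their part in the Sall1 and Maf results was not tested.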
